A study of Mus musculus with 10 samples.

Results

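Chromatin accessibility and H3K4me3 were described at the 8 genes of the core Sonic hedgehog pathway, *Shh*, *Ptch1*, *Hhip*, *Smo*, *Sufu*, *Gli1*, *Gli2* and *Gli3*, in quiescent, activated and reactivated mouse neural stem/progenitor cells (NSPCs). Peaks of the 6 ATAC-seq lists that overlap or abut were merged into 108367 sites. A site was assigned to a pathway gene when it lay in the gene or within 50 kb of it and the nearest transcription start site (TSS) of a protein-coding gene was that of the pathway gene. This gave 100 sites, of which 26 belonged to *Gli2*, 24 to *Gli3*, 19 to *Ptch1*, 8 each to *Sufu* and *Hhip*, 7 to *Shh*, and 4 each to *Smo* and *Gli1*. Among 17468 merged H3K4me3 regions, 13 met the same rule. Sites are named by gene and by the distance of their middle from the nearest coding TSS of that gene, negative when upstream. The genes have 1 to 5 such TSSs each.

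The study asked how chromatin differs between dividing and resting NSPCs and after the resting cells return to division. Primary NSPCs came from brains of C57BL/6 mice at postnatal day 5 and were grown with 20 ng/ml of FGF2 and 20 ng/ml of EGF, which is the activated state. Quiescent NSPCs had EGF withdrawn and received 25 ng/ml of BMP4 beside 20 ng/ml of FGF2, for 4 days per the labels, whereas the methods give a shorter time for ATAC-seq. Reactivated NSPCs went through the same BMP4 treatment and then spent 9 to 12 days in the activating medium, so that they were also the longest in culture. All states shared FGF2 and none carried a transgene. The cultures are mixtures of stem and progenitor cells outside their niche. Each state had 2 ATAC-seq libraries, and the quiescent and activated states had 1 H3K4me3 library each.

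Hedgehog ligands bind the receptor Patched, which in their absence keeps the membrane protein Smoothened inactive. Active Smoothened acts at the primary cilium to release the GLI transcription factors from Sufu and from processing into repressors, and *Ptch1*, *Hhip* and *Gli1* are themselves targets of GLI activators. In the ventricular zone of the postnatal brain, the pathway is known for its part in maintaining neural stem cells and in giving ventral stem cells their identity.

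ATAC-seq uses the Tn5 transposase to place adapters in accessible DNA, and H3K4me3 is a histone mark of active and poised promoters. The value given at each site is fold enrichment, the pileup at the peak over the background of the same library as called by MACS, with no scaling between libraries. The quiescent lists held 55027 and 60881 peaks, the activated lists 58618 and 47323, and the reactivated lists 106586 and 107137. The reactivated lists also had higher fold enrichment, with a median of 10.4 and 10.8 at sites with a peak in all 6 libraries against 5.58 to 7.41 in the other 4. A missing peak means that no peak passed an FDR of 0.05 in that library, not that the DNA was closed. The markers of neural stem and progenitor cells *Sox2*, *Nes*, *Fabp7*, *Msi1*, *Olig2*, *Pax6* and *Vim* had a promoter peak in all 6 libraries. A promoter peak in all 6 libraries was found at 3 of 4 neuronal markers, 1 of 3 astrocyte markers, and none of 5 microglial and 3 endothelial markers. Of the defining markers, *Gfap*, *Mog*, *Aif1*, *Csf1r*, *Cldn5*, *Pecam1* and *Cdh5* had no promoter peak in any library. *Aqp4*, listed here as a marker of astrocytes, is described by the paper as also expressed in quiescent neural stem cells. It had a promoter peak in both reactivated libraries and in none of the other 4. Among the microglial markers, *P2ry12* had a promoter peak in 5 of the 6 libraries, *Tmem119* in 3 and *Cx3cr1* in 1, and *Mbp*, a marker of oligodendrocytes, had one in 3.

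The pathway's sites were mostly distal. Of the 100 sites, 17 lay within 1 kb of a TSS, 55 in introns, 7 in exons, 18 upstream and 3 downstream of the gene. A peak in all 6 libraries was present at 20 sites (20%, against 21.3% of all sites), and a peak in a single library at 32 sites (32%, against 31% of all sites). Quiescent replicates 1 and 2 had peaks at 39 and 47 of the 100 sites, activated replicates at 34 and 33, and reactivated replicates at 77 and 73. These shares are close to those over all sites, which were 39.3% and 43.3%, 40.3% and 33.3%, and 74.5% and 75.1% in the same order.

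**Figure D1:**
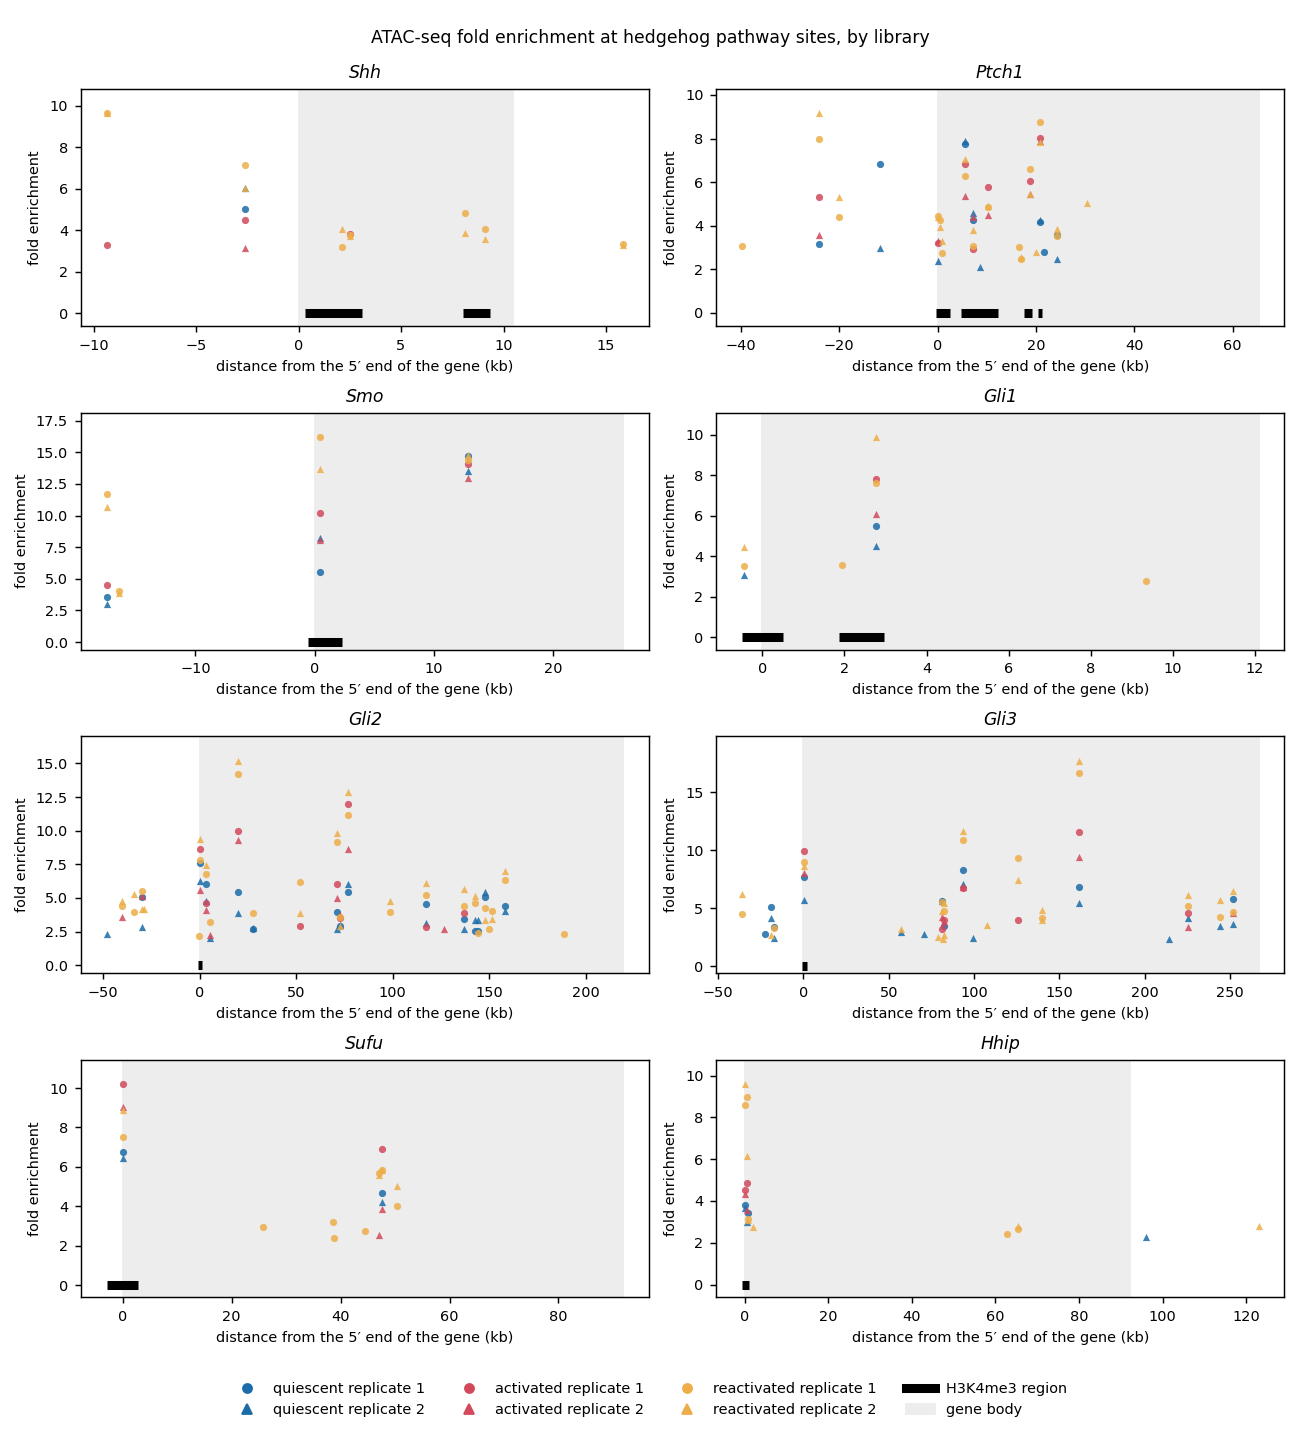
ATAC-seq fold enrichment (vertical axis, linear) at each of the 100 sites against the distance of its middle from the 5′ end of the gene in kb, 1 panel per gene, with colour for the state and shape for the replicate. Grey marks the gene body and black bars along the bottom mark H3K4me3 regions. These are present at the 5′ ends of all 8 genes, and *Shh* and *Ptch1* also have regions further inside the gene. Most accessible sites of *Gli2* and *Gli3* lie within long introns.

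A site was called specific to a state with a peak in both libraries of that state and in neither library of the other. By this rule, 8 sites of the pathway were specific to quiescent NSPCs against activated NSPCs, where 6.26% of all sites were, and 2 were specific to activated NSPCs, where 4.24% of all sites were. A further 16 sites had a peak in both reactivated libraries and in none of the other 4, where 14.8% of all sites did. None of these counts stands far from the share over all sites. Both the 2 activated-specific sites and 2 of the 8 quiescent-specific sites belonged to *Ptch1*, 5 quiescent-specific sites to *Gli2*, and 1 to *Gli3*. Of the 8 quiescent-specific sites, 4 had a peak in both reactivated libraries and 3 in 1 of them (over all sites, 55.0% had a peak in both), and both activated-specific sites had a peak in both reactivated libraries (over all sites, 91.9%). When every list was limited to its 47037 strongest peaks, the length of the shortest list, the number of sites found in the reactivated libraries alone fell to 0 among 58 sites of the pathway, and the quiescent-specific and activated-specific sites numbered 5 and 3. Over all 65838 sites left by this limit, the shares in the same order were 3.13%, 8.71% and 7.41%.

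**Figure D2:**
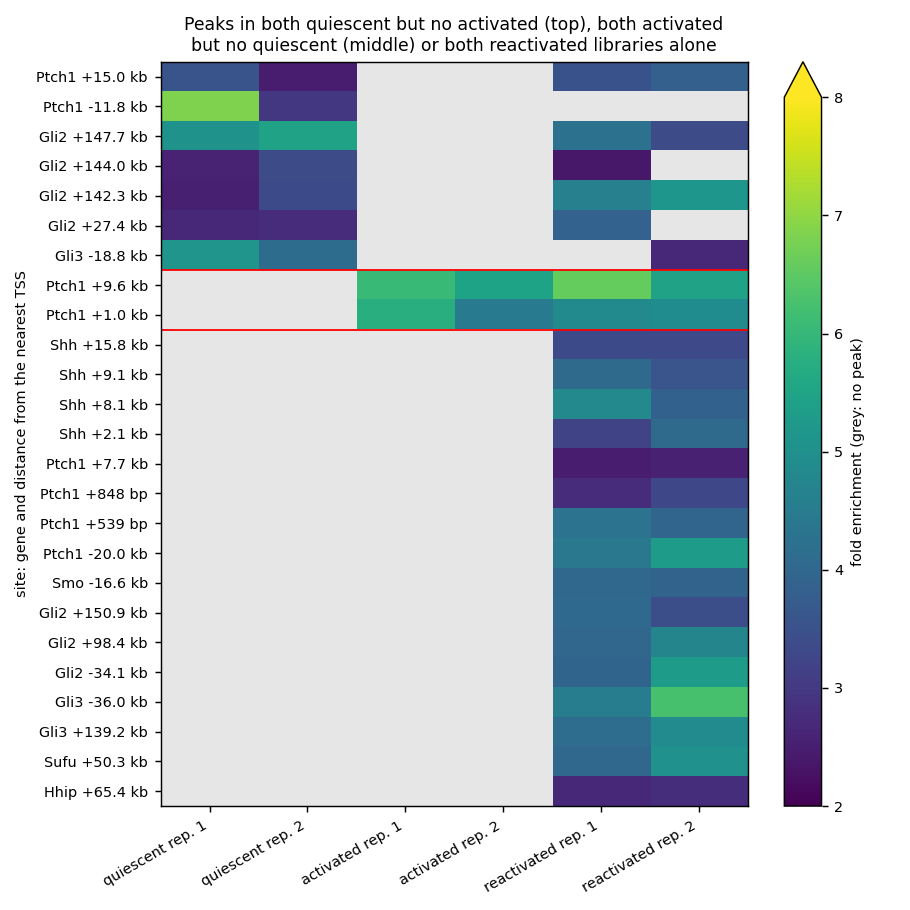
Fold enrichment in each library (colour, from 2 to 8; grey where the list has no peak) at 7 of the 8 quiescent-specific sites and at the 2 activated-specific and 16 reactivated-only sites, separated by red lines. The quiescent-specific sites shown include 4 of *Gli2*, and *Ptch1* -11.8 kb alone among them has no peak in either reactivated library.

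To test differences in strength, log2 fold enrichment at the 23116 sites with a peak in all 6 libraries was quantile-normalised and compared between the 3 states with limma, with Benjamini-Hochberg adjustment over all these sites and a threshold of 0.05. Differences are therefore relative to the typical site. Before scaling, the median log2 fold enrichment was higher by 0.22 in activated than in quiescent libraries, by 0.65 in reactivated than in activated, and by 0.87 in reactivated than in quiescent. The pathway had 20 such sites. Their median log2 difference was 0.07 for activated minus quiescent, -0.35 for reactivated minus activated and -0.43 for reactivated minus quiescent, against -0.02, -0.03 and -0.04 over all sites tested. In activated against quiescent NSPCs, 2 of the 20 sites were called higher and 2 lower, where 5.26% and 4.24% of all sites tested were called. In reactivated against activated NSPCs, none was called higher and 3 were called lower by limma, where 7.02% and 6.42% of all sites tested were. In reactivated against quiescent NSPCs, 3 were called higher and 5 lower, where 11.7% and 12.2% of all sites tested were. At an unadjusted p under 0.05, 5 were higher and 4 lower in activated against quiescent NSPCs (12.3% and 11.4% of all sites tested), 0 and 6 in reactivated against activated (15.6% and 16.8%), and 4 and 9 in reactivated against quiescent (18.3% and 20.5%). Without any scaling, the 5 higher calls of the 3 comparisons remained, whereas none of the 10 lower calls did and 3 of them changed sign. The split of the members then turned to all higher, with 4 called higher and 0 lower in activated against quiescent NSPCs, 8 and 0 in reactivated against activated, and 9 and 0 in reactivated against quiescent, where 83.4%, 99.3% and 99.3% of the calls over all sites were higher. Leaving out a library leaves its state with 1 sample, which is then assumed to vary like the other states, and with less power a lost call does not show which library it rested on. With 1 library left out at a time, the 4 calls of activated against quiescent became 0 or 1 for each of the 6 libraries. The 3 calls of reactivated against activated became 0 without activated replicate 2 or either reactivated library. The 8 calls of reactivated against quiescent became 4 without quiescent replicate 1, and 1 without quiescent replicate 2 or either reactivated library. A further alternative took in sites with a peak in at least 2 libraries and filled missing peaks with the lowest value of the list, and another kept only peaks with a -log10 q of at least 10. Beside the calls below, these alternatives and the one without scaling are named where they ended the call. With the q limit, 14 pathway sites were tested. The call of *Shh*, that of *Gli2* at +70.6 kb and both calls of *Gli3* at +80.4 kb have no result there. For these calls the q limit is not named, and this does not mean that they held. Filling in the first percentile of the list ended 5 of the 8 calls that the lowest value ended and no other.

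**Figure D3:**
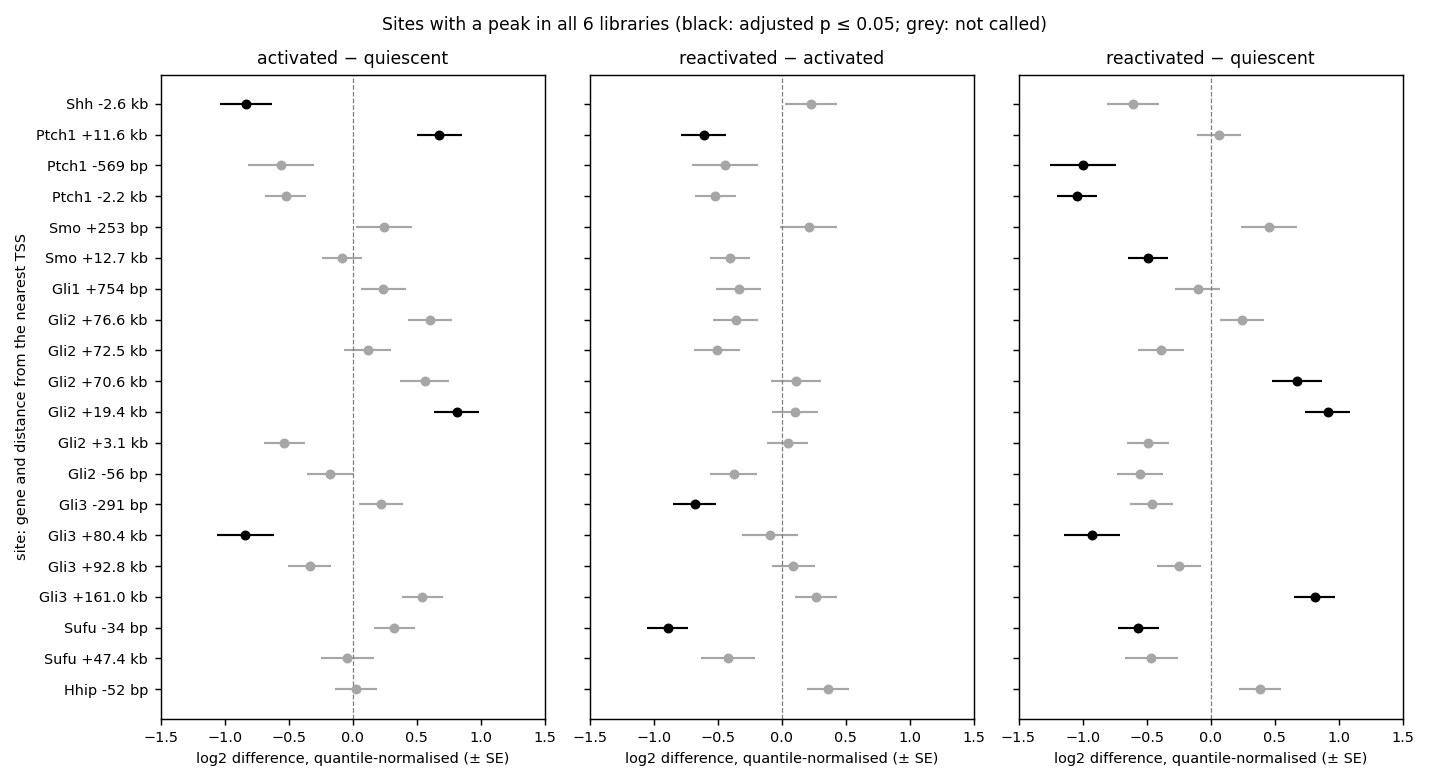
Differences in log2 fold enrichment after quantile normalisation (horizontal axis, points with ± 1 SE from the limma fit of 2 libraries per state) for the 20 pathway sites with a peak in all 6 libraries, for the 3 comparisons of states. Black points passed an adjusted p of 0.05 over 23116 sites; they lie between -1.04 and 0.91, and no reactivated minus activated difference is black on the right.

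*Shh* encodes the secreted ligand (chr5:28456815-28467256, mm10, minus strand). No library had an ATAC-seq peak within 1 kb of its TSS, although an H3K4me3 region began within that distance. The site at -2.6 kb, which also lies in the long noncoding RNA genes *9530036O11Rik* and *Gm26894*, was the single site of the gene with a peak in all 6 libraries. The quiescent replicates 1 and 2 had a fold enrichment of 5.05 and 6.05 there, with 4.51 and 3.13 in the activated, and 7.17 and 6.06 in the reactivated replicates. Both activated libraries lay below both quiescent libraries. The log2 difference of activated minus quiescent was -0.83 (SE 0.20, limma, adjusted p = 0.0327), and it passed the threshold without activated replicate 1 but not without any 1 of the other 5 libraries (limma, adjusted p up to 0.223). Without scaling it was -0.56 (limma, adjusted p = 0.142), and with the lowest value filled in -0.66 (limma, adjusted p = 0.126). All 7 sites of *Shh* had a peak in both reactivated libraries, while the quiescent libraries had 1 peak each and the activated libraries 3 and 1. Over all sites, 61.1% had a peak in both reactivated libraries. The 4 sites found in the reactivated libraries alone had a fold enrichment of 3.22 to 4.83. The strongest reactivated value of the gene was at -9.4 kb, with 9.65 and 9.66 in the reactivated replicates, 3.32 in activated replicate 1 and no peak in the other 3 libraries. The 200 bases around the strongest summit of both upstream sites are given because these sites hold the gene's called difference and its strongest reactivated values. Here and below, the sequence is the plus strand of GRCm38.p6 (the build mm10), and capitals mark exact matches on either strand to GACCACCCA (GLI), CAGCTG (an E-box), TTGGC (NFI site, one arm of its motif), TGANTCA (AP-1) and the core of the CTCF motif.
*Shh* -2.6 kb (chr5:28469851-28470050): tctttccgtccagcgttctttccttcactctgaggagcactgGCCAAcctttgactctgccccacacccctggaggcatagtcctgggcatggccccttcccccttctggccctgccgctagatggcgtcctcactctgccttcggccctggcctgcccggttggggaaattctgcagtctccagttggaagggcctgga
*Shh* -9.4 kb (chr5:28476553-28476752): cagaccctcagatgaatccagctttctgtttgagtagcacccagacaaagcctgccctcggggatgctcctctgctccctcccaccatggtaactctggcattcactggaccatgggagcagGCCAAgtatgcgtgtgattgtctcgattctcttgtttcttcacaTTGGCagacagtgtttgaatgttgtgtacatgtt
Both windows hold NFI sites and none of the other 4 motifs.

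*Ptch1* encodes the receptor that binds the ligand and, when unbound, holds Smoothened inactive (chr13:63508328-63573598, minus strand), and its 5 coding TSSs spread the promoter sites over several starts. It was the single gene of the pathway with both quiescent-specific and activated-specific sites. The site at +9.6 kb, in an intron, had no peak in the quiescent libraries, 6.04 and 5.47 in the activated, and 6.59 and 5.46 in the reactivated replicates. The site at +1.0 kb likewise had no quiescent peak, 5.76 and 4.49 in the activated and 4.85 and 4.91 in the reactivated replicates. At both sites the reactivated values lay within or near the activated range. The opposite pattern was found at -11.8 kb, where quiescent replicates had 6.84 and 2.98 and no other library had a peak. It was the single quiescent-specific site of the pathway that had no peak in either reactivated library. The replicates differed widely there, and stood at the 80.7th and 35.0th percentile of their own lists. The site at +15.0 kb had 3.56 and 2.45 in the quiescent libraries against 3.52 and 3.84 in the reactivated replicates, with no activated peak.
*Ptch1* +9.6 kb (chr13:63554679-63554878): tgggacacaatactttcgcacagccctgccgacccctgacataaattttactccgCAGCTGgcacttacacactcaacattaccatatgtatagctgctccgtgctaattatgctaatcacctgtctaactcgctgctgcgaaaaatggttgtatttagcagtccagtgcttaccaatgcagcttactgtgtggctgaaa
*Ptch1* +1.0 kb (chr13:63563274-63563473): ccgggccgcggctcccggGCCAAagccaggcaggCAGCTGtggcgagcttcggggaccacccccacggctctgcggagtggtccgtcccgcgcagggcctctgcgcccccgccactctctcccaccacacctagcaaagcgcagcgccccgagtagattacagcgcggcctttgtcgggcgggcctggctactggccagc
*Ptch1* -11.8 kb (chr13:63585205-63585404): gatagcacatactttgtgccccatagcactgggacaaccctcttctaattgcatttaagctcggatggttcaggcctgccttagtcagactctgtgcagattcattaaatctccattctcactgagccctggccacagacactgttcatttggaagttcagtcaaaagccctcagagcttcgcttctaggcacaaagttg
These windows are those of 3 of the gene's 4 state-specific sites. Both activated-specific windows hold the CAGCTG E-box, which 21.7% of all sites hold. The window at -11.8 kb holds none of the motifs searched, and that of the other quiescent-specific site, at +15.0 kb, holds 2 NFI sites.

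Of the 3 *Ptch1* sites with a peak in all 6 libraries, the one at -2.2 kb between the alternative starts had 7.77 and 7.90 in the quiescent, 6.85 and 5.37 in the activated and 6.27 and 7.07 in the reactivated replicates. The quiescent libraries were the highest even before scaling. The log2 difference of reactivated minus quiescent was -1.04 (SE 0.16, limma, adjusted p = 0.00404). It was the single call of the pathway that held whichever of the 6 libraries was left out, with limma adjusted p from 0.00635 to 0.0486, although without scaling the difference was -0.23 (limma, adjusted p = 0.312). For activated minus quiescent it was -0.52 (limma, adjusted p = 0.0687). The promoter site at -569 bp had 4.27 and 4.59, 2.91 and 4.39, and 3.08 and 3.80 in the quiescent, activated and reactivated replicates, and a reactivated minus quiescent difference of -1.0 (SE 0.26, limma, adjusted p = 0.0227). That call was lost without either quiescent or either reactivated library (limma, adjusted p up to 0.146). The difference was -0.37 without scaling, -1.71 with the lowest value filled in and -0.59 with the q limit (limma, adjusted p = 0.167, 0.0546 and 0.0669). The intronic site at +11.6 kb had 4.15 and 4.28 in the quiescent, 8.01 and 7.91 in the activated, and 8.75 and 7.85 in the reactivated replicates. Before scaling, all 4 activated and reactivated libraries lay above the quiescent pair, but after normalisation the reactivated minus quiescent difference was 0.07 (SE 0.17, limma, adjusted p = 0.809). The activated minus quiescent difference was 0.68 (SE 0.17, limma, adjusted p = 0.0401), and it missed the threshold without any 1 of the 6 libraries (limma, adjusted p from 0.0567 to 0.225). The reactivated minus activated difference of -0.61 (SE 0.17, limma, adjusted p = 0.0476) was likewise lost without any 1 library, and without scaling it was 0.06. With the replicate number as a block, neither difference of this site was called (limma, adjusted p = 0.0504 and 0.0584), nor was either with the lowest value filled in (limma, adjusted p = 0.0598 and 0.0814), and the second was not with the q limit (limma, adjusted p = 0.0908).
*Ptch1* -2.2 kb (chr13:63567891-63568090): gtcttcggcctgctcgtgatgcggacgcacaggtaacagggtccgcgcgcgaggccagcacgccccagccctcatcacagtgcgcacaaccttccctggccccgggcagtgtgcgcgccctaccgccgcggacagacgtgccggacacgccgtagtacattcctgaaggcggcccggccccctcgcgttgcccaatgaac
The -2.2 kb window, shown because its call held with each library left out in turn, holds no match to the motifs and has a GC content of 69.5%. At the most upstream start of *Ptch1*, the site at +38 bp had no peak in quiescent replicate 1, 2.37 in quiescent replicate 2, 3.19 and 3.28 in the activated, and 4.45 and 4.39 in the reactivated replicates. Its window overlaps an annotated untranslated region and holds 1 of the pathway's 2 GLI matches, shown in capitals with its flanks.
*Ptch1* +38 bp (chr13:63573455-63573483): gccctcggcgTGGGTGGTCtgccgcgcca
Sites at +539 bp and +848 bp, near the same start, were found in the reactivated libraries alone, with values from 2.75 to 4.28. So were those at +7.7 kb, with 2.45 and 2.55, and at -20.0 kb, with 4.40 and 5.32. The site at -24.2 kb, the upstream site of the gene with the highest values, had 3.16 and no peak in the quiescent, 5.31 and 3.57 in the activated, and 8.0 and 9.18 in the reactivated replicates.

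*Hhip* encodes a membrane protein that binds and sequesters hedgehog ligands (chr8:79965851-80058006, minus strand). Its strongest sites were at the promoter, where 3 of its 8 sites lay. The site at -52 bp had 3.79 and 3.67 in the quiescent, 4.51 and 4.34 in the activated, and 8.61 and 9.60 in the reactivated replicates. The 3 states did not overlap, but after normalisation the differences were 0.02 for activated minus quiescent (limma, adjusted p = 0.959) and 0.39 for reactivated minus quiescent (SE 0.16, limma, adjusted p = 0.112), and neither was called. The neighbouring site at +397 bp had no peak and 2.98 in the quiescent, 4.85 and 3.57 in the activated, and 8.99 and 6.13 in the reactivated replicates. The other 6 sites had at most 3.42 in any library, and 1 of them, in an exon at +65.4 kb, was found in the reactivated libraries alone with 2.67 and 2.79.

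*Smo* encodes Smoothened, the transducer of the signal (chr6:29735503-29761365, plus strand). Its promoter site at +253 bp had 5.51 and 8.23 in the quiescent, 10.2 and 8.03 in the activated, and 16.2 and 13.7 in the reactivated replicates. The quiescent and activated values overlapped, and the log2 differences of 0.24 for activated minus quiescent (limma, adjusted p = 0.574) and 0.45 for reactivated minus quiescent (limma, adjusted p = 0.159) were not called. The intronic site at +12.7 kb was among the strongest sites of the pathway, with 14.7 and 13.5, 14.1 and 13.0, and 14.4 and 14.8 in the quiescent, activated and reactivated replicates. Among the pathway's sites with a peak in all 6 libraries, its values were the most even relative to their size. It lay between the 95.6th and 99.1th percentile of every list. The 200 bases around its strongest summit are almost wholly a short tandem repeat. Whether the repeat affects the values of this site was not tested. The reactivated minus quiescent difference of the site was -0.49 after normalisation (SE 0.16, limma, adjusted p = 0.0488) and 0.05 without scaling. The call was lost without either quiescent library, without activated replicate 2, without either reactivated library (limma, adjusted p up to 0.192) and with the replicate block (limma, adjusted p = 0.0637). Upstream, the site at -17.6 kb, within the gene *Tspan33*, had 3.55 and 2.98 in the quiescent, 4.51 and no peak in the activated, and 11.7 and 10.7 in the reactivated replicates. Its neighbour at -16.6 kb was found in the reactivated libraries alone, with 4.00 and 3.91, and holds the other GLI match.
*Smo* -16.6 kb (chr6:29718922-29719121): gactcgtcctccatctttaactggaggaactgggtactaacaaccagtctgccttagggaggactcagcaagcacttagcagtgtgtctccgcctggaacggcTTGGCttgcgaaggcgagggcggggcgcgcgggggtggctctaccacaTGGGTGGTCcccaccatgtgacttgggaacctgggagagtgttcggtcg
An exact GLI match was found in 2 of the 100 windows of the pathway and in 0.159% of the windows of all sites.

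*Gli1* encodes the activator whose transcription is the standard readout of the pathway (chr10:127329882-127341974, minus strand). The site at +754 bp had 5.52 and 4.51 in the quiescent, 7.82 and 6.10 in the activated, and 7.64 and 9.91 in the reactivated replicates. The quiescent libraries were the lowest pair, but after normalisation the activated minus quiescent difference was 0.24 (SE 0.18, limma, adjusted p = 0.479) and the reactivated minus quiescent difference -0.10 (SE 0.18, limma, adjusted p = 0.709). The promoter site at -457 bp, at the upstream start, had a peak of 3.06 in quiescent replicate 2 and of 3.54 and 4.46 in the reactivated replicates. The remaining sites, at -81 bp and +7.3 kb, had a peak in reactivated replicate 1 alone. *Gli1* thus had no state-specific site and no called difference.

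*Gli2* encodes the GLI factor that acts chiefly as an activator (chr1:118834132-119053619, minus strand). Its promoter site at -56 bp had 7.59 and 6.25 in the quiescent, 8.66 and 5.60 in the activated, and 7.85 and 9.39 in the reactivated replicates. The quiescent and activated values overlapped, and the activated minus quiescent difference was -0.18 (SE 0.18, limma, adjusted p = 0.634). Differences were called at 2 sites inside the gene. The intronic site at +19.4 kb had 5.41 and 3.90 in the quiescent, 9.97 and 9.32 in the activated, and 14.2 and 15.2 in the reactivated replicates, with no overlap between states before scaling. The log2 difference was 0.81 for activated minus quiescent (SE 0.18, limma, adjusted p = 0.0213) and 0.91 for reactivated minus quiescent (SE 0.18, limma, adjusted p = 0.0083). For reactivated minus activated it was 0.10 (SE 0.18, limma, adjusted p = 0.724) and was not called. The first call was lost without quiescent replicate 2 or either activated library (limma, adjusted p up to 0.133). The second was lost without quiescent replicate 2 or either reactivated library (limma, adjusted p up to 0.0603), and was 1.68 without scaling (limma, adjusted p = 6.38e-05). The site at +70.6 kb, which overlaps a noncoding exon, had 3.96 and 2.67, 6.02 and 4.97, and 9.17 and 9.81 in the quiescent, activated and reactivated replicates. Its reactivated minus quiescent difference was 0.67 (SE 0.19, limma, adjusted p = 0.0336), lost without quiescent replicate 2 or either reactivated library (limma, adjusted p up to 0.209) and with the lowest value filled in (limma, adjusted p = 0.127), and 1.54 without scaling (limma, adjusted p = 0.000153). The strong site at +76.6 kb had 5.44 and 6.02 in the quiescent, 12.0 and 8.64 in the activated, and 11.2 and 12.9 in the reactivated replicates, and its activated minus quiescent difference of 0.60 (SE 0.17, limma, adjusted p = 0.0609) missed the threshold.

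The 5 quiescent-specific sites of *Gli2* all lay in introns, and 4 are described here. The site at +147.7 kb had 5.09 and 5.46 in the quiescent libraries against 4.23 and 3.39 in the reactivated replicates. At +142.3 kb the values were 2.53 and 3.34 in the quiescent libraries against 4.62 and 5.16 in the reactivated replicates. The weaker sites at +144.0 kb, with 2.57 and 3.40, and +27.4 kb, with 2.69 and 2.75, had a peak in reactivated replicate 1 only, with 2.39 and 3.89. Quiescent replicate 1 had the first of these at the 6.84th percentile of its list. The site at +150.9 kb was found in the reactivated libraries alone, with 4.06 and 3.43, as were those at +98.4 kb, with 3.98 and 4.74, and at -34.1 kb, with 3.94 and 5.32. No activated-specific site was found at *Gli2*. The windows of the called site at +19.4 kb and of the quiescent-specific site at +147.7 kb follow.
*Gli2* +19.4 kb (chr1:119033963-119034162): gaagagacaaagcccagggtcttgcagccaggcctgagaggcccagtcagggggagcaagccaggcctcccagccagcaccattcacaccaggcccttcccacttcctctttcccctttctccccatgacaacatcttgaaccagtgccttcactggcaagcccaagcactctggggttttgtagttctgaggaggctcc
*Gli2* +147.7 kb (chr1:118905440-118905639): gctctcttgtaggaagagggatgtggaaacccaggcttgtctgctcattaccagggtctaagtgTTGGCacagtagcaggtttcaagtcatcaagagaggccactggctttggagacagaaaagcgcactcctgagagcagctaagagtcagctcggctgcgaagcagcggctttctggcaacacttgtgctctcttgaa
The window at +19.4 kb holds none of the motifs, and that at +147.7 kb holds an NFI site. The window of the other called site, at +70.6 kb, holds an E-box and 2 NFI sites.

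*Gli3* encodes the GLI factor that is mainly processed into a repressor (chr13:15463235-15730026, plus strand). The promoter site at -291 bp had 7.66 and 5.68 in the quiescent, 9.90 and 8.06 in the activated, and 9.01 and 8.67 in the reactivated replicates. The reactivated minus activated difference was -0.68 (SE 0.17, limma, adjusted p = 0.0323), and it was lost without either activated or either reactivated library (limma, adjusted p up to 0.149). Without scaling it was -0.02 (limma, adjusted p = 0.954), and with the lowest value filled in -0.73 (limma, adjusted p = 0.0553). The strongest site of the gene, in an intron at +161.0 kb, had 6.85 and 5.43 in the quiescent, 11.6 and 9.41 in the activated, and 16.7 and 17.7 in the reactivated replicates. As at the +19.4 kb site of *Gli2*, the 3 states did not overlap before scaling. After normalisation, the reactivated minus activated difference of this site was 0.27 (SE 0.16, limma, adjusted p = 0.282) and was not called. Its reactivated minus quiescent difference was 0.81 (SE 0.16, limma, adjusted p = 0.00909), lost without quiescent replicate 2 or either reactivated library (limma, adjusted p up to 0.0641) and 1.49 without scaling (limma, adjusted p = 0.000114), and its activated minus quiescent difference was 0.54 (SE 0.16, limma, adjusted p = 0.0678). The site at +80.4 kb was highest in the quiescent libraries, with 5.64 and 5.66 in the quiescent, 3.18 and 4.24 in the activated, and 5.58 and 4.74 in the reactivated replicates. Both quiescent libraries lay above all others. The log2 difference was -0.84 for activated minus quiescent (SE 0.22, limma, adjusted p = 0.0427) and -0.93 for reactivated minus quiescent (SE 0.22, limma, adjusted p = 0.0165). The first call held without activated replicate 2 and was lost without any 1 of the other 5 libraries (limma, adjusted p up to 0.186). The second was lost without either quiescent or either reactivated library (limma, adjusted p up to 0.0987). Without scaling the differences were -0.62 and -0.14 (limma, adjusted p = 0.0778 and 0.574), and with the lowest value filled in -0.84 and -1.55 (limma, adjusted p = 0.307 and 0.0599).

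The quiescent-specific site of *Gli3*, at -18.8 kb and within the noncoding transcript *Gm6556*, had 5.13 and 4.13 in the quiescent replicates and a weak peak of 2.66 in reactivated replicate 2. In the quiescent lists it stood at the 66.0th and 61.6th percentile, in that reactivated list at the 4.19th. Sites at -36.0 kb, with 4.54 and 6.25, and +139.2 kb, with 4.14 and 4.89, were found in the reactivated libraries alone. A further 10 sites of *Gli3* were found in 1 library each, with fold enrichment of 2.36 to 3.98.
*Gli3* +161.0 kb (chr13:15624826-15625025): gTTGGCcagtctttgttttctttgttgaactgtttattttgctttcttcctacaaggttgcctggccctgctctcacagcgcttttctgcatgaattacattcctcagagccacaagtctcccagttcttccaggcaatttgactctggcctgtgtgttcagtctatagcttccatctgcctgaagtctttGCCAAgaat
*Gli3* -18.8 kb (chr13:15444348-15444547): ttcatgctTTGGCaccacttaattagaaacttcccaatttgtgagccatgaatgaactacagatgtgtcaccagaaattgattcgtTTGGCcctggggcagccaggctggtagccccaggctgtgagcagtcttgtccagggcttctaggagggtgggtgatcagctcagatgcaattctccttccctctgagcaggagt
These windows of the strongest and of the quiescent-specific site each hold 2 NFI sites, which 44.6% of all windows hold at least once. Of the 8 quiescent-specific windows of the pathway, 3 hold the NFI site, and those of *Gli2* at +144.0, +142.3 and +27.4 kb are among the others.

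*Sufu* encodes the cytoplasmic inhibitor that binds GLI proteins (chr19:46396896-46488804, plus strand). Its promoter site at -34 bp had 6.75 and 6.47 in the quiescent, 10.2 and 9.03 in the activated, and 7.53 and 8.91 in the reactivated replicates. The activated libraries were the highest pair and the quiescent libraries the lowest. The activated minus quiescent difference was 0.33 (SE 0.16, limma, adjusted p = 0.258). The reactivated minus activated difference was -0.89 (SE 0.16, limma, adjusted p = 0.0151), lost without activated replicate 2 or either reactivated library (limma, adjusted p up to 0.114), and -0.23 without scaling (limma, adjusted p = 0.328). The reactivated minus quiescent difference was -0.57 after normalisation (SE 0.16, limma, adjusted p = 0.0319) but 0.31 without scaling, and it was lost without either quiescent or either reactivated library (limma, adjusted p up to 0.184) and with the q limit (limma, adjusted p = 0.064). The intronic site at +47.4 kb had 4.70 and 4.20, 6.90 and 3.85, and 5.83 and 5.82 in the quiescent, activated and reactivated replicates and no called difference. The site at +50.3 kb was found in the reactivated libraries alone, with 4.03 and 5.03.

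Promoter sites with a peak in all 6 libraries were thus present at 7 of the 8 genes, all but *Shh*. None of these 7 sites was called in activated against quiescent NSPCs by limma, and 0 of 7 had an unadjusted p under 0.05. Over all sites tested, 5.26% were called higher and 4.24% lower there, and 12.3% and 11.4% were at that unadjusted p, so that a count of 0 among 7 sites is not a result about the promoters. In reactivated NSPCs, those of *Gli3* and *Sufu* were called lower than in activated NSPCs, and those of *Ptch1* and *Sufu* lower than in quiescent NSPCs, where 6.42% and 12.2% of all sites tested were. None of these 4 calls was made without scaling, where the differences were -0.02, -0.23, -0.37 and 0.31 in that order. At an unadjusted p under 0.05, 0 of the 7 were higher and 2 lower in reactivated against activated NSPCs, and 1 higher and 4 lower in reactivated against quiescent NSPCs, where 15.6% and 16.8%, and 18.3% and 20.5%, of all sites tested were.

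**Figure D4:**
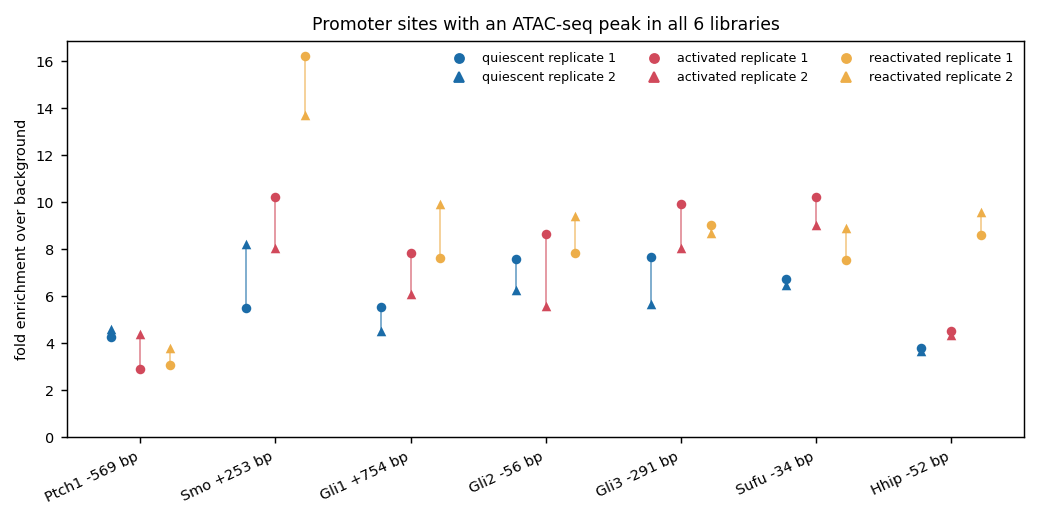
Fold enrichment (vertical axis, linear, from 0, not scaled between libraries) of the 7 promoter sites with a peak in all 6 libraries, with each library as a point and the 2 replicates of a state joined by a line. The reactivated values are the highest at *Smo* (16.2 and 13.7) and *Hhip* (8.61 and 9.60), and the activated values are the highest at *Sufu* (10.2 and 9.03).

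H3K4me3 was compared between quiescent and activated NSPCs by the fold enrichment over input of each region, with 1 library per state and hence no replicate check and no test. All 8 genes had an H3K4me3 region at a promoter in both lists. At the main promoter regions the quiescent and activated values were 59.6 and 53.9 at *Smo*, 48.9 and 44.8 at the downstream and 51.7 and 49.9 at the upstream starts of *Ptch1*, and 44.9 and 38.7 at *Gli3*. They were 38.3 and 34.3 at *Sufu*, in a region that also holds sites of another gene. They were 36.3 and 26.8 at *Hhip*, and 29.3 and 21.1 at *Gli2*. *Shh* had 27.4 and 20.4, and *Gli1* had 18.7 and 14.9 at one start and 6.39 and 6.42 at the other. The ratio of quiescent to activated ranged from 0.818 to 1.39 over the 13 regions, with a median of 1.11 against 1.08 over the 15572 regions in both lists. It was above 1 at 11 of the 13 regions (84.6%, against 65.4% of all). None passed a 1.5-fold difference, where 6.52% of all regions were more than 1.5-fold higher in quiescent and 1.39% in activated NSPCs.

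The length called was greater in the quiescent list at all 13 regions, against 74% of all regions, and the list itself was longer (17186 against 15980 regions). The widest region of the pathway, at the downstream starts of *Ptch1*, covered 7417 bp in quiescent and 6350 bp in activated NSPCs, and the region of *Sufu* covered 5781 and 4849 bp. The *Sufu* region held 3 ATAC-seq sites, of which only that at -34 bp was assigned to *Sufu*. The length and fold enrichment of this region therefore cannot be credited to *Sufu* alone. Away from promoters, *Ptch1* had weak intronic regions at +11.6 kb (3.39 and 3.09, over 915 and 244 bp) and +9.2 kb (3.34 and 4.08, over 1263 and 542 bp). Each overlapped an ATAC-seq site described above, the first the +11.6 kb site and the second the activated-specific +9.6 kb site. The *Shh* regions at the promoter and at +8.7 kb (6.14 and 5.65) each held 2 ATAC-seq sites with a peak in both reactivated libraries, and none with a peak in both quiescent or both activated libraries.

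**Figure D5:**
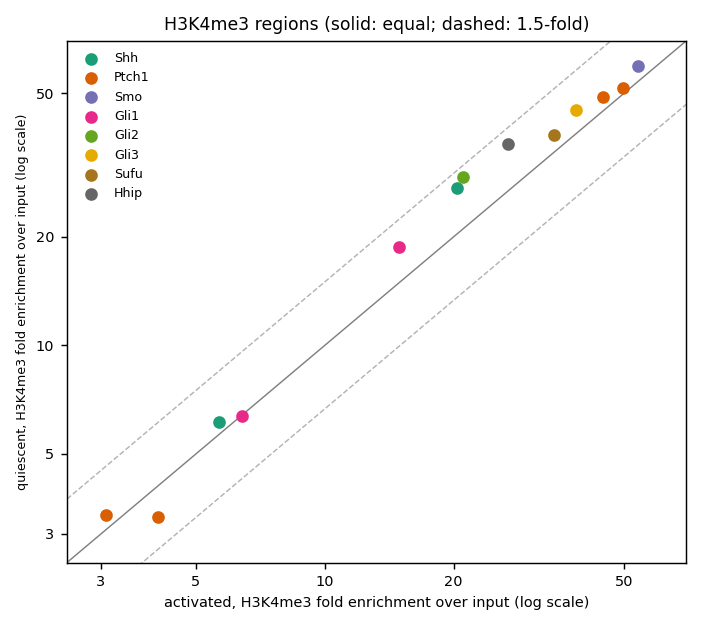
H3K4me3 fold enrichment over input of the 13 regions in quiescent (vertical) against activated NSPCs (horizontal), both on log scales, 1 library per state, coloured by gene. All points lie between the dashed lines of a 1.5-fold difference, with ratios from 0.818 to 1.39, and 11 of 13 lie above the line of equal values.

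A separate list of 39 other genes of the pathway, which holds none of the 8 genes above, was examined by role, by the same rule. A promoter peak in all 6 libraries was found at 29 of the 39, H3K4me3 in both lists at 33, and a promoter peak in no library at 1, *Foxa2*, a ventral target. All 9 ciliary regulators and all 9 kinase and degradation genes had a promoter peak in all 6 libraries, as did 4 of 5 receptors and coreceptors, 5 of 9 targets and 2 of 7 genes for ligands and their release. The other ligands *Ihh* and *Dhh* had promoter peaks in 2 and 1 of the 6 libraries. No share over all genes stands beside these promoter counts or those of the 8 genes above. The counts therefore do not set these genes or roles apart from other genes. The 39 genes had 245 sites, of which 9 were quiescent-specific, 11 activated-specific and 40 found in the reactivated libraries alone (3.67%, 4.49% and 16.3%, against 6.26%, 4.24% and 14.8% of all sites). Of the 48 sites with a peak in all 6 libraries, limma called 1 higher and 0 lower in activated against quiescent NSPCs, 3 higher and 4 lower in reactivated against activated, and 3 higher and 6 lower in reactivated against quiescent. Over all sites tested, the shares called higher and lower were 5.26% and 4.24%, 7.02% and 6.42%, and 11.7% and 12.2% in the same order. At an unadjusted p under 0.05, 5 of the 48 were higher and 2 lower in activated against quiescent NSPCs, 5 higher and 13 lower in reactivated against activated, and 7 higher and 9 lower in reactivated against quiescent. The shares of all sites tested at that p are those given above, 12.3% and 11.4%, 15.6% and 16.8%, and 18.3% and 20.5%. The site called in activated against quiescent belonged to *Lrp2*, a coreceptor. Targets held 11 of the 48 sites. Of the 6 sites called lower in reactivated against quiescent, 4 belonged to targets, 1 to the receptor or coreceptor *Gas1* and 1 to the kinase *Gsk3b*. The 3 called higher in that comparison belonged to *Lrp2*, *Gpr161* and *Bcl2*. All 4 sites called lower in reactivated against activated belonged to *Ccnd1*, *Ccnd2* and *Mycn*, which are among the 9 targets. The 3 sites called higher there belonged to *Bcl2*, another target, and to *Gpr161* and *Kif3a*, both ciliary regulators. Without scaling, 86 in place of 1483 of all sites were called lower in this comparison. Over all sites, the 3105 calls of this comparison became 5 without activated replicate 2 and 0 without either reactivated library.

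Over the 100 windows of 200 bases, the CAGCTG E-box was found in 27% against 21.7% of all sites, the NFI site in 39% against 44.6%, TGANTCA in 4% against 7.59% and the CTCF core in 6% against 4.12%. RefSeq promoters, which span 300 bases across the start on GRCm38.p6, were matched for 6 of the 8 genes. The *Ptch1* promoter among them (chr13:63565686-63565985) does not cover the most upstream start, where the +38 bp site with its GLI match lies. None of the 6 held the GLI, E-box, AP-1 or CTCF letters, which 0.253%, 16.3%, 7.81% and 0.557% of 32851 promoters held, and those of *Smo* and *Sufu* held the NFI site, which 46.7% held. Such matches describe the letters in these windows and do not show binding.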

How the data were processed

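Accessibility was measured by ATAC-seq in 2 libraries for each of the 3 states, and H3K4me3 by ChIP-seq in 1 library each of quiescent and activated NSPCs, called against input that was not analysed here on its own. The authors trimmed reads with Trim Galore 0.4.0, aligned them to mm10 with Bowtie2 2.2.5, removed duplicates with Picard 1.88 and SAMtools 1.3.1, and called peaks in each library with MACS 2.1.1 at an FDR of 0.05. Names of the peaks mark the reads of the reactivated libraries as downsampled. For H3K4me3 the authors used the broad mode of MACS, with a q limit of 0.05, a limit of 0.01 for broad regions and an extension of 150 bp. The deposited fold enrichment is a ratio over the background, not scaled between libraries, and the deposited −log10 q-value grows with depth. The study describes both replicates of a state as biological replicates.

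Peaks on autosomes, X and Y that share at least 1 bp or abut were merged, with the highest fold enrichment per library as the value. The study tested reads with DiffBind. Reads per site were not analysed here, so log2 fold enrichment at sites with a peak in all 6 libraries was quantile-normalised and tested with limma 3.58.1 in R 4.3.3. Genes and TSSs came from GENCODE M21. Percentiles are within a list. The remaining steps used Python 3.11.15 (pandas 2.3.3, numpy 2.4.6, matplotlib 3.10.9). The limma fit was tested on simulated data, and no outcome of that test is reported here.

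The members, gene lists, motifs and markers were chosen with earlier results of these data known. The sites named are promoter sites, the site of each gene with the highest mean fold enrichment, state-specific, reactivated-only and called sites, and all H3K4me3 regions. *Ptch1* -24.2 kb, *Smo* -17.6 kb, *Gli2* +76.6 kb, *Sufu* +47.4 kb and the single-library sites of *Gli1* and *Gli3* were named after their values were seen. The alternatives were windows of 25 and 100 kb, the 5′ end of each gene as its TSS, a minimum −log10 q of 10, lists of equal length, merging only where bases are shared, other scalings, a pseudocount of 1, sites with a peak in at least 2 libraries, a replicate block, a 2-fold limit for H3K4me3 and leaving out each ATAC-seq library. Some of the sites and markers are not reported here.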

Additional observations from a re-analysis of the deposited data

How the results depend on the processing

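Sites with no peak in a library have no value there, and the depth behind a peak is not in the values used, so sites with missing peaks were compared only by the presence of peaks unless a value was filled in. With values filled in, 74759 sites were tested, 68 of them of the pathway, against 23116 and 20 in the comparison reported. With the q limit, 14379 and 14 were tested. The counts of calls below therefore rest on unlike numbers of sites and are not rates. Activated against quiescent, 2196 of all sites were called by limma in the comparison reported, 9797 with the lowest value of the list at missing peaks in sites with a peak in at least 2 libraries, 9464 with the first percentile instead (chosen after seeing the data), 700 with a −log10 q of at least 10, and 980 to 1559 with 1 library left out. The 4 calls at pathway sites became 9 with the first percentile and 0 to 1 with 1 library left out. Reactivated against activated, the count over all sites was 3105, with 11531 without scaling, 4967 with the lowest value, 1889 with the q limit, and 0 to 2565 with 1 library left out. It was 5 without activated replicate 2 and 0 without either reactivated library. At pathway sites the 3 calls, all lower, became 5 with median centring, 8 without scaling, all of them higher, 5 with the lowest value, 6 with the first percentile and 0 to 2 with 1 library left out. Reactivated against quiescent, the count was 5513, with 15334 without scaling, 13634 with the lowest value, 13982 with the first percentile, 3036 with the q limit, and 713 to 6004 with 1 library left out. At pathway sites the 8 calls, 3 higher and 5 lower, became 9 without scaling, all higher, 15 with the lowest value, 4 with the q limit, and 1 to 10 with 1 library left out. Of the calls, 55.4% in activated against quiescent, 52.2% in reactivated against activated and 48.9% in reactivated against quiescent were higher, against 83.4%, 99.3% and 99.3% without scaling, and 40.0% and 33.2% in the last 2 with median centring.

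Without scaling, 3 differences changed sign, namely *Ptch1* +11.6 kb for reactivated against activated (0.06), and *Smo* +12.7 kb (0.05) and *Sufu* -34 bp (0.31) for reactivated against quiescent. The cause was not tested. With the replicate block, 2182, 2842 and 5344 of all sites were called in the same order and 3, 2 and 7 at pathway sites. Deviations of equally numbered replicates were not correlated between states (Pearson r across 23116 sites of 0.011, 0.026 and -0.005). The values at these sites thus show no pairing by replicate number, but they cannot tell whether equally numbered libraries were prepared together.

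The number of pathway sites was 64 with the q limit, 58 with lists of equal length and 91 to 101 with 1 library left out. The quiescent-specific sites numbered 4 with the q limit, 5 with lists of equal length and 8 to 19 with 1 library left out, the activated-specific sites 4 with the q limit and 2 to 6, and both together 10 to 23. The sites of the reactivated libraries alone numbered 0 with lists of equal length and 17 to 30 with 1 library left out. The shares over all sites moved as well. With 1 library left out, they were 6.93% to 14.2% for quiescent-specific, 4.71% to 10.1% for activated-specific and 16.1% to 29.7% for reactivated-only sites. With the q limit, 4.86% of all sites were quiescent-specific and 4.62% activated-specific. The windows around the genes, the definition of the TSS, the merging rule, the pseudocount and every H3K4me3 alternative moved no count by over 1.5 times.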
